A study of Mus musculus with 2 samples.

Results

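Sox5, Sox6, Sox9, Runx2, Runx3, Sp7, Dlx5, Dlx6 and Msx2 are transcription factors of cartilage and bone. They were chosen by symbol as 9 of the 32285 genes in the count table, and all 9 were found once each. The samples were single cells of E14 mouse embryos without heads and viscera, sorted for tdTomato (tdT) and sequenced as 1 library per genotype on the 10x Genomics platform. Both genotypes carried Cre under the Myf5 promoter and the Rosa26-LSL-tdT reporter, in which Cre removes a stop so that cells and their descendants become red. They differed at the floxed Srsf2 gene, a splicing factor gene. SRSF2f/f/Myf5-Cre/tdT embryos had both floxed copies and SRSF2f/w/Myf5-Cre/tdT embryos, the controls, had 1 floxed copy, so the controls are not wild type and every cell counted lies inside the tdT gate. The number of embryos behind a library was not given in the sources used here.

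The labels of the libraries disagree. The quality summaries of the study head the library of 15268 barcodes Het/tdT and that of 12498 barcodes MKO/tdT, while the sample titles name the first f/f and the second f/w. The libraries are called Het/tdT and MKO/tdT here after the summary headings, and every direction between libraries would turn round under the titles. Muscle-like cells made up 15.5% (14.9 to 16.2) of the kept cells of the library headed Het/tdT and 0.91% (0.73 to 1.11) of those of the library headed MKO/tdT. Srsf2, the targeted gene, stood at 218.9 UMIs per 1000000 UMIs of the same cells (CPM) within Het/tdT and 152.8 CPM within MKO/tdT, which is a log2 difference of -0.52 (-0.54 to -0.49). UMIs are unique molecular identifiers, which count RNA molecules. After the quality limits 12523 cells with a median of 10751 UMIs remained within Het/tdT and 10345 cells with a median of 9480 UMIs within MKO/tdT. With 1 library per genotype no test between genotypes was possible. Values carry 95% intervals in parentheses (exact Poisson for levels, exact binomial for shares and ratios). They cover counting error only and not the variation between embryos. Those of levels and of their ratios treat UMIs as independent, so variation between cells is left out as well.

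Cartilage and bone arise from shared mesenchymal precursors. Sox9 is the master regulator of the cartilage fate, and Sox5 and Sox6 are its partners in switching on cartilage matrix genes. Runx2 and, downstream of it, Sp7 (Osterix) are required for osteoblasts, while Runx2 and Runx3 together drive chondrocytes into hypertrophy, the last stage before cartilage is replaced by bone. Dlx5 and Dlx6 are neighbouring homeobox genes that act upstream of the bone programme, and Msx2 is a homeobox factor of limb, skull and skin appendages.

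Cells were placed in classes by UMI limits on marker genes, none of them a member, and each class is named after its markers. Chondrocyte-like cells (Acan, Matn1, Col9a1, Col9a3, Cnmd) numbered 2355 within Het/tdT and 2484 within MKO/tdT. Osteoblast-like cells (Alpl, Ibsp, Ifitm5, Bglap, Bglap2, Phex) numbered 222 and 103, and 3 of these 6 markers had a UMI in at least 25% of them. A further 158 and 115 cells met both limits. Tendon-like cells numbered 332 and 141, and mesenchyme-like cells (Pdgfra, Dcn, Lum, Dpt, Prrx1) 3431 and 2100. Chondrocyte-like cells made up 18.8% (18.1 to 19.5) of the kept cells of Het/tdT and 24.0% (23.2 to 24.8) of those of MKO/tdT, which gave a log2 ratio of 0.35 (0.28 to 0.42). Over cells outside the muscle-like class, which held 1943 and 94 cells, this ratio was 0.12. Osteoblast-like cells made up 1.77% (1.55 to 2.02) and 0.996% (0.81 to 1.21).

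Sox9 (chromosome 11, 112782224 to 112787760, GRCm38) had 33598 UMIs within Het/tdT and 29393 UMIs within MKO/tdT. Its level was 696 CPM (687 to 706) and 608 CPM (599 to 617) in chondrocyte-like cells, which held 64% and 62% of all its UMIs. Neural progenitor-like cells, only 17 and 26 in number, stood at 690 CPM (538 to 872) and 412 CPM (327 to 512). The order then ran over the cells of both limits at 353 and 416 CPM, osteoblast-like cells at 181 CPM (168 to 195) and 180 CPM (161 to 201), epidermal-like cells at 141 and 162 CPM, tendon-like cells at 136 and 138 CPM, and mesenchyme-like cells at 89.1 CPM (86.0 to 92.3) and 125 CPM (120 to 130). The intervals of neighbours met between chondrocyte-like and neural progenitor-like cells and between epidermal-like and tendon-like cells within Het/tdT. In MKO/tdT they met between the cells of both limits and neural progenitor-like cells, and along the run of osteoblast-like, epidermal-like, tendon-like and mesenchyme-like cells.

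Droplets also catch free RNA, so the level in a class that should lack the gene sets the background. Endothelial-like cells had Sox9 at 3.3% of the chondrocyte-like level within Het/tdT and 2.8% within MKO/tdT, while Col2a1, the main cartilage collagen, stood there at 1.2% and 1.3%. In osteoblast-like cells Col2a1 was at 1.4% and 1.9% of the chondrocyte-like level, close to the endothelial-like background, and Hapln1 at 2.4% and 2.6%. Sox9 was there at 26.0% and 29.7%, Sox6 at 37.4% and 37.1%, and Col11a2, another cartilage collagen gene, at 24.8% and 24.6%. Cells that met the cartilage limit were left out of the osteoblast-like and mesenchyme-like classes by rule. In the cells of both limits Col2a1 stood at 96.6% and 103.6%. The part of the class rule in the low Col2a1 and Hapln1 of osteoblast-like cells was not tested. Sox9 in mesenchyme-like cells was at 12.8% and 20.5%, with Col2a1 at 1.7% and 2.0%. Shares also differed between genes in endothelial-like cells, where Hapln1 stood at 2.8% and 2.5%, and the part of free RNA was not tested further. Sox6 in mesenchyme-like cells, at 5.5% and 8.8%, lay closer to its endothelial-like share of 3.8% and 4.2%.

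Sox5 (chromosome 6, 143828425 to 144781977) was at 164 CPM (159 to 168) in chondrocyte-like cells of Het/tdT and at 141 CPM (137 to 145) in those of MKO/tdT. Schwann-like cells came next in both libraries, at 137 CPM (118 to 158) and 116 CPM (96.5 to 138). Osteoblast-like cells had 10.7 CPM (7.79 to 14.4) and 7.28 CPM (3.88 to 12.5), that is 6.6% and 5.2% of the chondrocyte-like level. Sox6 (chromosome 7, 115470872 to 116038796) stood at 103 CPM (99.4 to 107) and 89.1 CPM (85.7 to 92.5) in chondrocyte-like cells and at 197 CPM (121 to 305) and 86.4 CPM (50.3 to 138) in neural progenitor-like cells. It also reached 47.1 CPM (36.7 to 59.6) and 36.3 CPM (29.2 to 44.5) in epidermal-like cells, 22.3 CPM (15.1 to 31.9) and 38.3 CPM (27.5 to 52.0) in Schwann-like cells and 19.8 and 22.7 CPM in muscle-like cells.

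Runx2 (chromosome 17, 44495987 to 44814797) was highest in osteoblast-like cells, at 159 CPM (147 to 171) within Het/tdT and 152 CPM (135 to 172) within MKO/tdT. The cells of both limits followed at 145 CPM (131 to 159) and 108 CPM (94.3 to 123). Chondrocyte-like cells had 35.9 CPM (33.8 to 38.1) and 31.7 CPM (29.7 to 33.8), which the level of tendon-like cells, 30.9 and 32.0 CPM, met within the intervals. Because chondrocyte-like cells were many, they still held 30% and 33% of all Runx2 UMIs, more than the 17% and 9% of osteoblast-like cells. Runx3 (chromosome 4, 135120652 to 135177990) was highest in immune-like cells, at 130 CPM (114 to 147) and 100 CPM (93.7 to 107). The cells of both limits had 48.4 CPM (40.7 to 57.0) and 33.6 CPM (26.3 to 42.3), chondrocyte-like cells 30.5 CPM (28.6 to 32.6) and 21.9 CPM (20.2 to 23.6), and osteoblast-like cells 20.2 CPM (16.1 to 25.1) and, from only 25 UMIs, a level between 9.06 and 20.7 CPM. Among immune-like cells, those with at least 4 UMIs of lymphoid genes (Gzma, Cd3g, Cd3e, Il2rb, Il7r) had Runx3 at 242 and 143 CPM and those with mast-cell genes (Cpa3, Cma1, Gata2, Kit) at 172 and 107 CPM. Immune-like cells with macrophage genes (C1qa, C1qb, C1qc, Csf1r) had 16.8 CPM (7.7 to 31.9) and 7.26 CPM (2.66 to 15.8) of Runx3. Runx2 was at 23.9 and 19.3 CPM in all immune-like cells. With mast-cell genes it was at 33.0 CPM (23.1 to 45.7) and 27.1 CPM (22.9 to 31.8), which met the chondrocyte-like intervals. It was at 17.0 and 8.98 CPM with lymphoid genes and at 7.47 and 4.84 CPM with macrophage genes. These immune groups could share cells and were set after the class levels had been seen.

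Both Runx genes have an annotated distal start, and their promoter letters are shown because the same pair of Runx binding sites lies at both starts. RefSeq windows of 250 bases before to 50 after a start (GRCm38.p6) were at hand for 5 members, Sox5, Sox6, Runx2, Runx3 and Msx2, with 11 windows in all. The core searched was TGTGGT on either strand, printed in capitals and read here from its other strand as ACCACA, and the motifs were picked after the sequences had been read. The core occurred in 16.8% of all 32851 windows and in 4 of the 11 windows of members, which belong to Runx2, Runx3 and Sox6. The 250 bases before the distal Runx3 start, chr4:135120395-135120644 on the plus strand, hold it as a pair. The following lines give that stretch, then 30 bases around the pair in Runx3 (chr4:135120502-135120531, plus strand), 30 bases with the pair 14 to 43 bases after the Runx2 start (chr17:44814584-44814613, minus strand), and 30 bases with a single core 92 to 63 bases before the Runx2 start (chr17:44814690-44814719, minus strand).
Runx3 before the distal start: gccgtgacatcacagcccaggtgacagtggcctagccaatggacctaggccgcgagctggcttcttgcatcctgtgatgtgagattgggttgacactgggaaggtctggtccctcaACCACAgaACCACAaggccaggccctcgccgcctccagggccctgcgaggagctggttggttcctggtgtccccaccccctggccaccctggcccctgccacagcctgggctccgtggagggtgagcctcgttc
Runx3 pair: ggtccctcaACCACAgaACCACAaggccag
Runx2 pair: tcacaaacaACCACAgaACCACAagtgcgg
Runx2 single core: gtgaggtcacaaACCACAtgattctgtctc
The longest run shared by a Runx2 and a Runx3 window, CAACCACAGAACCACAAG with 18 bases, was found in 4 of the 32851 windows (0.0122%) on either strand. These windows belong to Runx1, Runx2, Runx3 and Gm16225. The Sox core AACAAT, searched on either strand and found in 10.7% of windows, was in 1 of the 11 windows of members, which is a Sox6 window. The homeodomain core TAATTG, found on either strand in 8.0% of windows, was in none of them. A match is a description of these letters and not evidence of binding.

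Sp7 (chromosome 15, 102356606 to 102367182) was at 55.1 CPM (48.1 to 62.7) and 43.1 CPM (34.0 to 53.9) in osteoblast-like cells, at 25.5 and 23.3 CPM in the cells of both limits, and at 3.19 CPM (2.59 to 3.88) and 3.08 CPM (2.48 to 3.78) in chondrocyte-like cells. Dlx5 (chromosome 6, 6877805 to 6882085) followed the same order, with 49.5 CPM (42.9 to 56.8) and 59.4 CPM (48.6 to 71.8) in osteoblast-like cells, 28.9 and 27.0 CPM in the cells of both limits, and 4.16 and 5.49 CPM in chondrocyte-like cells. Dlx6 (chromosome 6, 6863334 to 6868568) had only 125 and 102 UMIs in all, with 9.99 CPM (7.17 to 13.6) and 6.72 CPM (3.47 to 11.7) in osteoblast-like cells and 2.38 CPM (0.96 to 4.91) and 6.53 CPM (3.57 to 11.0) in the cells of both limits. The antisense gene Dlx6os1 (chromosome 6, 6820189 to 6871592) spans Dlx6 on the opposite strand, and the assignment of reads at their overlap was not tested. Dlx genes also mark forebrain GABAergic neurons, which embryos without heads do not supply. In the 101 and 197 neuron-like cells with at least 2 UMIs of Gad1, Gad2 and Slc32a1 there were 0 and 1 UMIs of Dlx5 and 0 UMIs of Dlx6 in both libraries. Msx2 (chromosome 13, 53466884 to 53473074) was low throughout, with 158 and 211 UMIs. Epidermal-like cells had 4.78 CPM (1.92 to 9.85) and 5.52 CPM (3.02 to 9.26) of Msx2, and mesenchyme-like cells, with 1.57 and 3.16 CPM, held 35% and 33% of its UMIs.

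**Figure D1:**
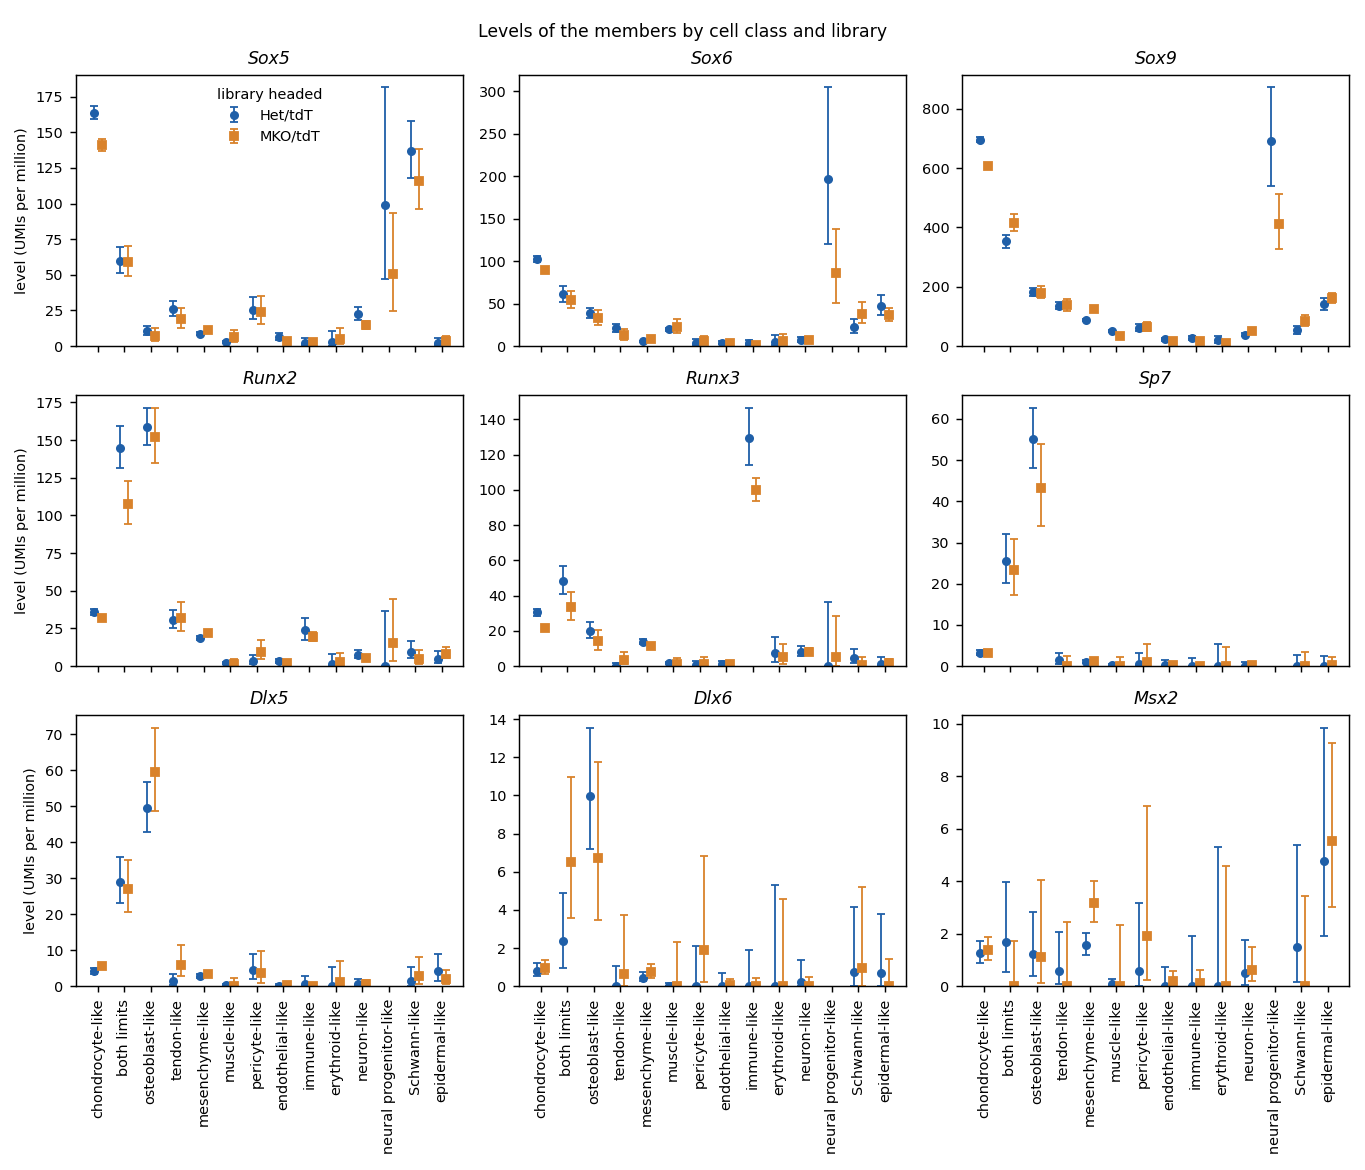
Levels in CPM (vertical axes, linear, from 0) of each member in 14 cell classes of both libraries, as points with exact 95% Poisson intervals. Sox5 is highest in chondrocyte-like cells and Runx2, Sp7, Dlx5 and Dlx6 in osteoblast-like cells, although the next class meets within the intervals for Sox5 and Dlx6 of MKO/tdT and Runx2 of Het/tdT. Runx3 is highest in immune-like cells. Neural progenitor-like cells are left out of the panels of Sp7, Dlx5, Dlx6 and Msx2, where their few UMIs give wide intervals.

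The first comparison asked how the members divide between cartilage and bone inside each library. A gene was counted as past the fold when its level differed by at least 1.5 times, with at least 50 UMIs in both classes together. Each class leaves out cells that met the limit of the other, so genes that go with the markers are set apart partly by this rule. Of all genes with enough UMIs, 13.1% were higher and 23.5% lower past this fold in osteoblast-like than in chondrocyte-like cells of Het/tdT, and 12.4% and 26.4% within MKO/tdT. Among the members 3 were higher past the fold in both libraries, Runx2, Sp7 and Dlx5, and 4 were lower in both, Sox5, Sox6, Sox9 and Runx3. Dlx6 was higher past the fold within Het/tdT and had under 50 UMIs within MKO/tdT.

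Runx2 was 4.42-fold and 4.81-fold higher in osteoblast-like cells, with log2 ratios of 2.14 (2.003 to 2.29) and 2.27 (2.07 to 2.46). Sp7 had the largest ratios among these 3 members, with 4.11 (3.76 to 4.47) and 3.81 (3.35 to 4.26), and Dlx5 had 3.57 (3.24 to 3.90) and 3.43 (3.07 to 3.795). Dlx6 had 3.62 (2.87 to 4.40) within Het/tdT and 2.84 (1.73 to 3.86) within MKO/tdT. The Sox genes did not fall by the same size. Sox5 was 15.3-fold and 19.3-fold lower, with log2 ratios of -3.93 (-4.39 to -3.50) and -4.27 (-5.18 to -3.50). Sox9 had -1.94 (-2.05 to -1.84) and -1.75 (-1.92 to -1.59), and Sox6 -1.42 (-1.66 to -1.19) and -1.43 (-1.83 to -1.06). Runx3 lay just past the fold at -0.59 (-0.94 to -0.27) and -0.64 (-1.28 to -0.07), with intervals that reach above it.

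**Figure D2:**
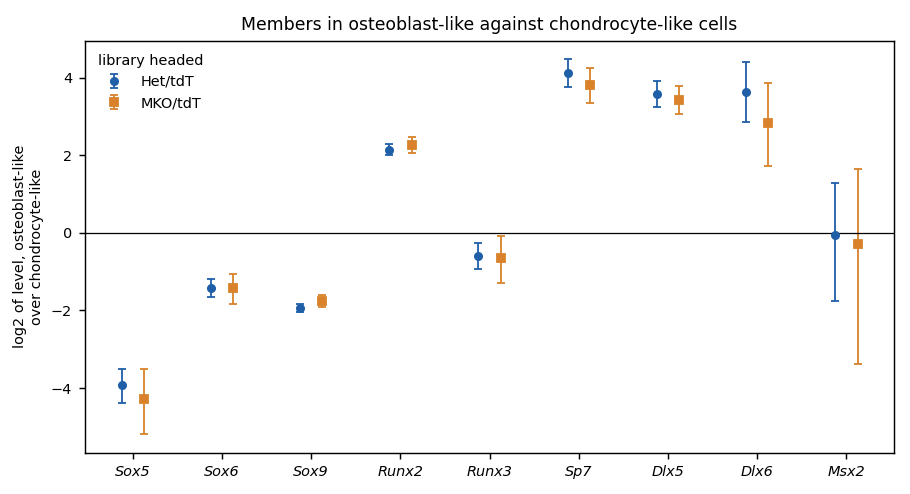
Log2 of the level in osteoblast-like over chondrocyte-like cells (vertical axis) for each member in both libraries, with exact 95% intervals from the split of counts. Sox5 is lowest at -3.93 and -4.27, Sp7 is highest at 4.11 and 3.81, and Msx2 rests on few UMIs.

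Genes known to work with or under the members divided in the same comparison. Of the 8 cartilage genes listed as targets of Sox factors, all were lower past the fold in osteoblast-like cells of both libraries. The class rule, which leaves cells with cartilage markers out of this class, favours that direction. Col2a1 had log2 ratios of -6.13 and -5.75, Snorc -5.95 and -6.35, and Col11a1, the least lowered, -1.36 and -1.66. Of the 8 bone genes listed as Runx2 and Sp7 targets, 6 were higher past the fold in both libraries, Spp1, Col1a1, Dmp1, Sparc, Col5a2 and Smpd3. Kcnk2, a potassium channel, was lower past the fold in both, with -1.19 (-2.54 to -0.11) and -1.01 (-2.65 to 0.25), and Mmp13 was higher past it within MKO/tdT only, with 0.46 and 3.46. Smpd3, a sphingomyelinase of mineralizing tissue, was higher by 5.76 and 5.71, Col1a1, the main bone collagen, by 3.79 and 3.42, and Spp1, osteopontin, by 2.36 and 1.47. Among the listed cofactors Mef2c and Twist1 were higher past the fold in both libraries, and Nfatc1 and Foxc1 were lower. Cbfb, the shared partner of all Runx proteins, did not pass the fold, with 43.0 CPM in chondrocyte-like and 45.1 CPM in osteoblast-like cells of Het/tdT and at 44.5 and 45.9 CPM in those of MKO/tdT. Runx1, the third Runx gene, was on the chondrocyte side, with log2 ratios of -0.90 and -0.81.

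Osteoblast-like cells with a UMI of Sp7, 120 from Het/tdT and 45 from MKO/tdT, were compared with the 102 and 58 without. Background shares past the fold were 7.81% higher and 10.8% lower within Het/tdT, and 4.71% and 6.24% within MKO/tdT. Dlx5 was 60.5 against 32.3 CPM, a log2 ratio of 0.91 (0.44 to 1.39), within Het/tdT, and 70.6 against 47.8 CPM, 0.56 (-0.02 to 1.16), within MKO/tdT. Runx2 had 0.61 (0.37 to 0.86) and 0.02 (-0.34 to 0.37), so the difference within Het/tdT had no like within MKO/tdT. Cells with Sp7 were deeper, with medians of 18962 against 14102 UMIs and 18413 against 14218 UMIs. The part of depth was not tested.

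The second question was whether single cells held both Sox9, of the cartilage fate, and Runx2, of the bone fate. A UMI of both was found in 61.5% (56.0 to 66.9) of the 325 osteoblast-like cells, in 22.5% (21.4 to 23.8) of the 4839 chondrocyte-like cells and in 6.04% (5.43 to 6.70) of the 5531 mesenchyme-like cells of both libraries. Endothelial-like cells, which should lack both, gave 1.43% (0.83 to 2.28) of 1190 cells. Median depths were 16888, 11254, 9473 and 13872 UMIs in these 4 classes. By library the share in osteoblast-like cells was 60.8% within Het/tdT and 63.1% within MKO/tdT, with overlapping intervals. The 273 cells of both limits, some of which can be doublets, had a higher share, 70.0%, with 72.2% within Het/tdT and 67.0% within MKO/tdT. Tendon-like cells had 14.2%. Among the other named classes the share ran from 0.80% in erythroid-like to 8.53% in epidermal-like cells. It was 3.67% in immune-like cells. The epidermal-like share, from 18 cells with both genes, lay above that of mesenchyme-like cells. Of all 2434 cells with both genes, 44.8% were chondrocyte-like, 13.7% mesenchyme-like, 8.2% osteoblast-like and 7.8% cells of both limits. A further 11.4% were cells set aside for meeting several limits.

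Depth and single stray molecules affect such shares. At least 2 UMIs of each gene were found in 35.6% (29.3 to 42.3) and 33.0% (24.1 to 43.0) of osteoblast-like cells and in 8.5% (7.4 to 9.7) and 6.6% (5.7 to 7.7) of chondrocyte-like cells. In the cells of both limits they were found in 47.5% (39.5 to 55.6) and 41.7% (32.6 to 51.3). In endothelial-like cells they were found in 0 of 344 and 0 of 846, with upper bounds of 1.1% and 0.44%. Thinning to 2000 UMIs kept 321, 4686, 5516 and 1189 cells of the osteoblast-like, chondrocyte-like, mesenchyme-like and endothelial-like classes, since shallower cells were left out. It left both genes in 7.79% (5.10 to 11.3) of osteoblast-like, 3.46% (2.95 to 4.02) of chondrocyte-like, 0.544% (0.367 to 0.776) of mesenchyme-like and 0.168% (0.0204 to 0.606) of endothelial-like cells. Osteoblast-like cells with both genes held a median of 3 UMIs of Sox9 and 3 of Runx2 in each library, whereas chondrocyte-like cells with both held 8 and 7 UMIs of Sox9 and 1 of Runx2.

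Whether Sox9 and Runx2 avoid each other within a class could not be decided. After thinning, Sox9 was found in 21.2% (12.1 to 33.0) of the osteoblast-like cells with Runx2 and 26.1% (19.4 to 33.9) of those without within Het/tdT, and in 40.7% (22.4 to 61.2) and 24.0% (14.9 to 35.3) within MKO/tdT. In chondrocyte-like cells it was found in 60.4% (52.4 to 67.9) with and 63.1% (61.0 to 65.1) without Runx2 within Het/tdT, and in 51.6% (42.4 to 60.8) and 58.1% (56.1 to 60.2) within MKO/tdT. All these pairs of intervals overlap. Thinning removes Runx2 from many cells that held it, so the cells without Runx2 are a mixture. The osteoblast-like class also leaves out cells that met the cartilage limit. The overlap therefore shows neither avoidance nor its absence. The cartilage trio was compared in the same way. Chondrocyte-like cells with Sox5 had Sox9 in 69.7% (65.7 to 73.5) against 60.7% (58.4 to 63.0) of those without within Het/tdT, and in 66.1% (62.0 to 70.0) against 55.2% (52.9 to 57.5) within MKO/tdT. Sox6 was found in 21.1% (17.8 to 24.7) of chondrocyte-like cells with Sox5 and 16.3% (14.6 to 18.1) of those without within Het/tdT, and in 20.4% (17.1 to 23.9) and 14.8% (13.2 to 16.5) within MKO/tdT. Sox9 was found in 69.3% (64.6 to 73.8) of those with Sox6 and 61.5% (59.3 to 63.7) of those without within Het/tdT, but in 59.5% (54.4 to 64.5) and 57.5% (55.2 to 59.6) within MKO/tdT. The intervals were apart for Sox5 with Sox9 in both libraries, for Sox5 with Sox6 within MKO/tdT and for Sox6 with Sox9 within Het/tdT, and overlapped otherwise.

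**Figure D3:**
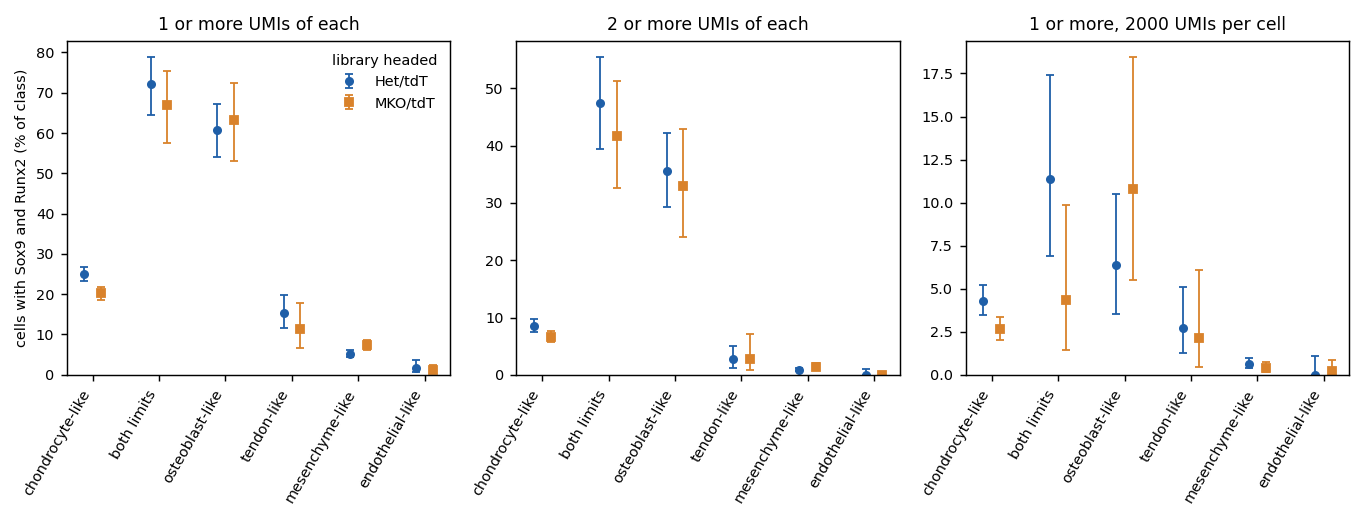
Share of cells with UMIs of both Sox9 and Runx2 (vertical axes, percent of the class, each from 0 with its own scale) in 6 classes of both libraries, for 1 or more UMIs of each, 2 or more, and 1 or more after thinning to 2000 UMIs, with exact 95% binomial intervals. Osteoblast-like cells reach 60.8% and 63.1% with 1 or more UMIs of each and 35.6% and 33.0% with 2 or more. The cells of both limits lie higher, at 72.2% and 67.0% and at 47.5% and 41.7%. Endothelial-like cells, the background, stay at 0 with 2 or more.

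The cells that met both limits were then described by hypertrophic and bone genes. Col10a1, the collagen of hypertrophic cartilage, was at 3252 CPM (3187 to 3318) and 2209 CPM (2147 to 2273) in them, against 88.6 and 37.8 CPM in chondrocyte-like and 4.14 and 1.12 CPM in osteoblast-like cells. Runx3 stood above its level in either class in both libraries, from 142 and 72 UMIs. Between the libraries 0 of 7 members with 50 UMIs passed the fold in these cells, against 8.71% of 7415 genes. Runx2 had a log2 ratio of MKO/tdT over Het/tdT of -0.43 (-0.66 to -0.19) and Sox9 of 0.24 (0.11 to 0.37). Of these cells, 83 and 60 had at least 2 UMIs of Ihh and Col10a1 together, and 53 and 41 had none. The first set had Col2a1 at 14826 and 13101 CPM and Col1a1 at 542 and 795 CPM, the second Col2a1 at 1965 and 2566 CPM and Col1a1 at 5460 and 4017 CPM. Sox9 was at 451 and 540 CPM in the first and 236 and 313 CPM in the second, and Runx2 at 113 and 91.9 CPM against 192 and 126 CPM. Sp7 was at 15.2 (9.67 to 22.9) and 15.8 CPM (9.19 to 25.3) against 44.4 (32.2 to 59.6) and 27.1 CPM (17.0 to 41.0). Doublets were not removed by a caller, and a doublet of a cartilage and a bone cell would also meet both limits.

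The third comparison asked how the members move along cartilage maturation. Ihh, Indian hedgehog, marks chondrocytes about to become hypertrophic, and Col10a1 those that are. Among chondrocyte-like cells, 229 within Het/tdT and 186 within MKO/tdT had at least 2 UMIs of Ihh and Col10a1 together, and 1827 and 2057 had none. Of all genes, 6.40% and 6.76% were higher past the 1.5-fold in the first set, and 19.6% and 24.5% were lower. Among the members 4 were higher past it in both libraries, Runx2, Runx3, Sp7 and Dlx5, and none was lower. Runx3 changed by 1.37 (1.14 to 1.59) and 1.68 (1.41 to 1.94), Sp7 by 1.70 (0.97 to 2.41) and 1.98 (1.25 to 2.68), Dlx5 by 0.90 (0.24 to 1.52) and 1.40 (0.84 to 1.93), and Runx2 by 0.85 (0.63 to 1.06) and 0.62 (0.36 to 0.88) on the log2 scale. Sox5 and Sox6 were level, with 0.00 (-0.12 to 0.12) and 0.02 (-0.12 to 0.16) for Sox5 and 0.03 (-0.12 to 0.18) and 0.01 (-0.17 to 0.18) for Sox6. Cells with the 2 genes were deeper, with medians of 17676 against 11029 UMIs and 17612 against 9939 UMIs.

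Splitting the chondrocyte-like cells and those of both limits together into 3 sets, after these levels had been seen, separated the genes further. The first set had neither gene (1880 and 2098 cells), the second at least 2 UMIs of Ihh and under 10 of Col10a1 (128 and 146 cells), and the third at least 10 UMIs of Col10a1 (107 and 61 cells). Sox9 went from 654 CPM (644 to 665) to 845 CPM (809 to 883) and then to 444 CPM (414 to 474) within Het/tdT, and from 583 CPM (574 to 593) to 762 CPM (730 to 796) and 496 CPM (456 to 538) within MKO/tdT. Sox5 stood at 155, 177 and 97.4 CPM within Het/tdT and at 136, 153 and 63.5 CPM within MKO/tdT. Both were lowest in the Col10a1 set in either library, and Sox9 was highest in the Ihh set, while for Sox5 the intervals of the first and second sets overlapped. Runx2 went up at each step, from 38.4 CPM (35.9 to 41.0) over 57.4 CPM (48.2 to 67.8) to 107 CPM (92.6 to 122) within Het/tdT and from 32.7 CPM (30.4 to 35.0) over 49.1 CPM (41.1 to 58.1) to 83.5 CPM (67.6 to 102) within MKO/tdT. Cells of both limits, which had Runx2 at 145 and 108 CPM, were 53 of the 1880 and 41 of the 2098 cells of the first set. Their share in the later sets was not taken. The part of class make-up in these steps was not tested. Runx3 was already at 61.9 CPM (52.4 to 72.7) and 55.6 CPM (47.1 to 65.2) in the Ihh set, against 23.2 and 16.5 CPM with neither gene, and its intervals in the Col10a1 set, 64.0 CPM (53.2 to 76.4) and 41.7 CPM (30.8 to 55.4), met those of the Ihh set. Sp7 had 3.89, 9.56 and 9.89 CPM within Het/tdT and 2.94, 11.0 and 8.70 CPM within MKO/tdT, with 10 to 30 UMIs behind each of the later values, so their order is not resolved.

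**Figure D4:**
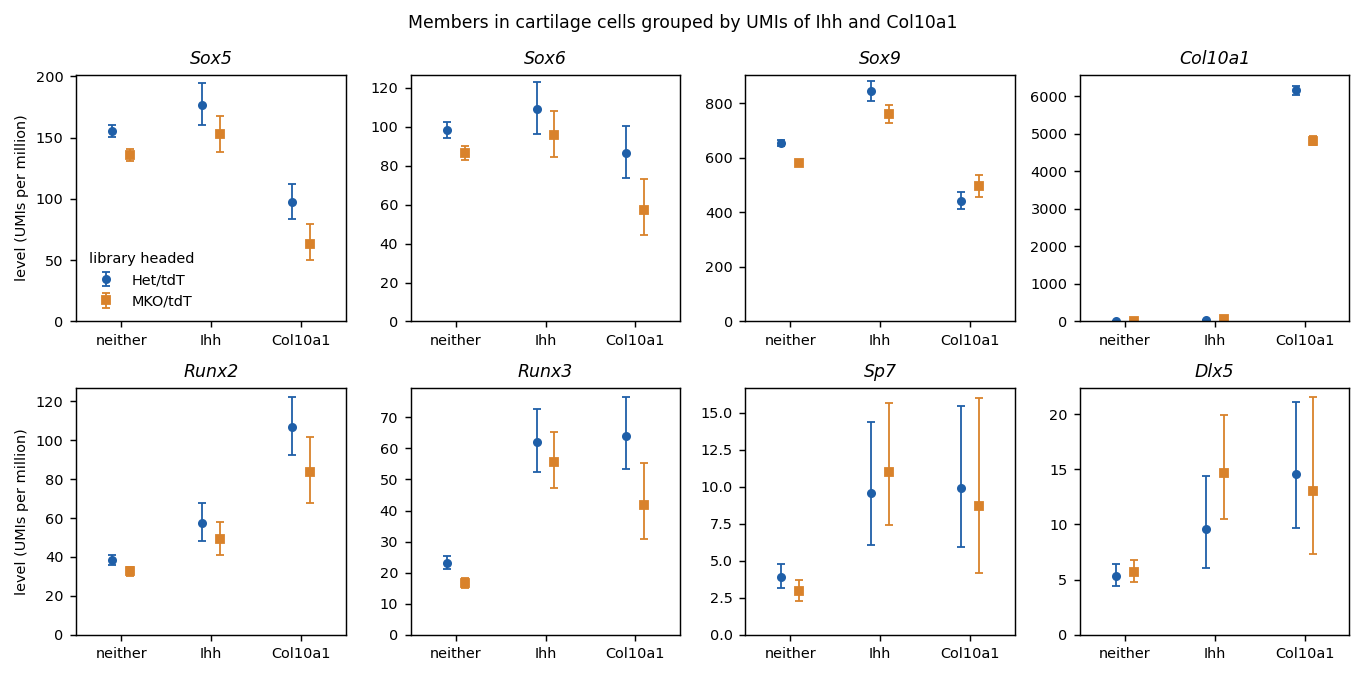
Levels in CPM (vertical axes, linear, from 0) of 7 members and Col10a1 in chondrocyte-like cells and cells of both limits, grouped by UMIs of Ihh and Col10a1 as neither, at least 2 of Ihh with under 10 of Col10a1, or at least 10 of Col10a1, with exact 95% Poisson intervals. Sox9 is highest in the Ihh set, Sox9 and Sox5 are lowest in the Col10a1 set, Runx2 goes up at each step, and Runx3 is raised from the Ihh set on. The part of the mix of both classes in each set was not tested.

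Chondrocyte-like cells were also split by the cell cycle genes Mki67, Top2a, Cenpf and Birc5, with at least 2 UMIs in 784 and 587 cells and none in 1044 and 1439. Background shares past the fold were 9.33% higher and 2.72% lower within Het/tdT, and 8.36% and 3.27% within MKO/tdT. Cycling cells were deeper, with medians of 15644 against 10069 UMIs and 15555 against 9292 UMIs. No member with 50 UMIs passed the fold in either library. Sox9 was lower in cycling cells, 646 against 732 CPM and 531 against 630 CPM, with log2 ratios of -0.18 (-0.22 to -0.14) and -0.25 (-0.30 to -0.20). Runx3 was higher, by 0.42 (0.21 to 0.64) and 0.36 (0.11 to 0.61). Runx2 had -0.50 (-0.70 to -0.30) within Het/tdT and 0.01 (-0.21 to 0.22) within MKO/tdT.

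Over the 14 classes, genes with at least 200 UMIs and on no class marker list were ranked by the correlation of their log2(CPM + 1) with each member. The class markers could therefore not appear among the nearest genes. The ranking is a description of classes that share 2 libraries and differ in depth. The gene nearest to Dlx5 was Dlx6 (r = 0.96), with 0.89 within Het/tdT and 0.94 within MKO/tdT alone. Sp7 came nearest to Slc13a5 (0.97), a citrate transporter, and Entpd3 (0.96). Sox5 lay nearest to Chadl (0.95), S100b (0.91) and Rflna (0.90), and Sox6 to Sox9 (0.90), Cfap300 (0.85) and Fgfr3 (0.83). The nearest genes to Sox9 were Cfap300 (0.92), Tlcd1 (0.91) and Kank1 (0.90), but that of Cfap300 was 0.26 within Het/tdT alone. Within Het/tdT alone Cfap300 had 0.18 with Sox6, and Slc35c1 had 0.38 with Runx3. Runx2 was nearest to Tiam2 and Cercam (0.92 each) and Carmil1 (0.91), and Runx3 to Evi2a (0.85), Tnfsf11 (0.83) and Slc35c1 (0.83). For Dlx5 they were Dlx6, Gm32618 (0.95) and Dmp1 (0.92), for Dlx6 Lpar3 (0.96), Dlx5 and Enpp6 (0.95), and for Msx2 Fzd10 (0.91), Gm45885 (0.88) and Wnt7b (0.88).

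The last comparison set MKO/tdT against Het/tdT. Over all kept cells 1 of 9 members passed the 1.5-fold, Msx2, from 1.04 to 1.72 CPM with a log2 ratio of 0.72 (0.41 to 1.03), while 23.0% of the 17243 genes with at least 50 UMIs did. In these bulk sums more cells of a type and more RNA per cell cannot be told apart. Runx3 had a ratio of 0.40 (0.31 to 0.48), yet it was lower in immune-like cells, by -0.37 (-0.58 to -0.16), in chondrocyte-like cells, by -0.48 (-0.63 to -0.34), and in mesenchyme-like cells, by -0.27 (-0.49 to -0.04). Immune-like cells made up 0.99% of cells of Het/tdT and 5.65% of cells of MKO/tdT and held 11% and 38% of the Runx3 UMIs. Over the cells outside this class Runx3 stood at 12.9 and 12.6 CPM, a ratio of -0.03 (-0.13 to 0.07). Sp7 had -0.49 (-0.68 to -0.29) over all cells and -0.13 (-0.40 to 0.13) outside osteoblast-like cells and those of both limits. Msx2 outside mesenchyme-like cells still had 0.67 (0.30 to 1.05).

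In chondrocyte-like cells 0 of 9 members passed the fold, against 7.12% of 13090 genes. The 5 Sox and Runx genes were each slightly lower within MKO/tdT, Sox5 by -0.22 (-0.28 to -0.16), Sox6 by -0.21 (-0.28 to -0.13), Sox9 by -0.20 (-0.22 to -0.17), Runx2 by -0.18 (-0.31 to -0.05) and Runx3 by the -0.48 given above. Dlx5 was higher, 4.16 against 5.49 CPM, with 0.40 (0.06 to 0.74). The median of all genes in this class was -0.05. All 8 cartilage targets stayed within the fold, with a median of -0.17, and so did all 10 cofactors, with a median of -0.09. Of the 5 hypertrophic genes 2 were lower past it, Col10a1 with -1.23 (-1.33 to -1.13) and Mmp13, a collagenase, with -1.27 (-1.88 to -0.69), and Ihh had 0.41 (0.27 to 0.55). This class leaves out the cells of both limits, which held 9549 and 4738 of the 13153 and 7531 UMIs of Col10a1. There Col10a1 had -0.56 (-0.61 to -0.51), within the fold, and over all kept cells -0.50 (-0.54 to -0.46). Mmp13 went the other way outside chondrocyte-like cells, with 2.05 (1.61 to 2.51) in the cells of both limits, 1.98 (1.24 to 2.77) in mesenchyme-like cells and 1.42 (1.18 to 1.66) over all kept cells. Its UMIs were clumped, however. In the cells of both limits with at least 2 UMIs of Ihh and Col10a1 together, 42 and 168 UMIs of Mmp13 came from 8.4% of 83 and 11.7% of 60 cells. All intervals of level ratios treat UMIs as independent. With such clumping those of Mmp13 are too narrow, and its direction rests on few cells. Cells with at least 10 UMIs of Col10a1 made up 4.26% (3.50 to 5.12) of chondrocyte-like cells and those of both limits within Het/tdT and 2.35% (1.8 to 3.005) within MKO/tdT. Among the cell cycle genes Top2a was lower past the fold with -0.59 (-0.65 to -0.54) and Mki67 just within it with -0.58 (-0.66 to -0.50). Among chondrocyte-like cells and those of both limits with neither Ihh nor Col10a1, the ratios were -0.19 (-0.26 to -0.12) for Sox5, -0.18 (-0.27 to -0.10) for Sox6, -0.17 (-0.20 to -0.13) for Sox9, -0.23 (-0.37 to -0.09) for Runx2 and -0.49 (-0.68 to -0.30) for Runx3. This set is not a part of the chondrocyte-like class, because it also holds cells of both limits. The 53 and 41 cells of both limits in it held 190 of its 889 Runx2 UMIs within Het/tdT and 102 of 777 within MKO/tdT. A ratio for its chondrocyte-like cells alone was not taken. In the 107 and 61 cells with at least 10 UMIs of Col10a1, Sox9 had 0.16 (0.005 to 0.31), well within the fold. Sox5 with -0.62 (-1.03 to -0.22), Sox6 with -0.59 (-1.02 to -0.17) and Runx3 with -0.62 (-1.13 to -0.13) lay just past the fold. Their intervals reach within it. Runx2 had -0.35 (-0.72 to 0.002). The share of all genes past the fold in these cells was not taken. The part of cycling in these ratios was not tested.

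In mesenchyme-like cells the Sox genes and Runx2 went the other way. Sox9 was at 89.1 CPM within Het/tdT and 125 CPM within MKO/tdT, a log2 ratio of 0.49 (0.41 to 0.56), Sox6 at 5.62 and 7.88 CPM with 0.49 (0.19 to 0.79), Sox5 at 8.80 and 11.3 CPM with 0.36 (0.12 to 0.61), and Runx2 at 18.6 and 21.7 CPM with 0.22 (0.05 to 0.39). In endothelial-like cells, the background, Sox6 was at 3.87 and 3.75 CPM and Sox5 at 6.39 and 3.68 CPM. After thinning, Sox9 was found in 14.5% (13.4 to 15.8) of mesenchyme-like cells of Het/tdT and 19.7% (18.0 to 21.5) of those of MKO/tdT. Unthinned, these shares were 41.2% and 46.2%. Col2a1 in the same cells was at 1.7% and 2.0% of its chondrocyte-like level. Its own level there was 154 and 153 CPM, a log2 ratio of -0.01 (-0.08 to 0.05). Among the members with 50 UMIs 1 of 8 passed the fold, Msx2 with 1.01 (0.49 to 1.55) from 56 and 69 UMIs, against 9.83% of 13439 genes. Of the 9 factors of sclerotome and limb with 50 UMIs, 5 were higher past it and none lower. They were Barx1 with 1.68 (1.30 to 2.07), Msx1 with 1.08 (0.65 to 1.51), Dlx2 with 1.05 (0.21 to 1.90), Foxc2 with 0.81 (0.45 to 1.17) and Pax9 with 0.63 (0.38 to 0.88), and 4.90% of all genes were higher and 4.93% lower past the fold. The list median was 0.63, beside -0.05 over all genes. The mesenchyme-like class holds several kinds of connective tissue cells, and a shift in its make-up and a change within a kind cannot be told apart here.

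In osteoblast-like cells, with 222 and 103 cells, every interval of a member with 50 UMIs included 0. Runx2 had -0.06 (-0.27 to 0.15), Sox9 -0.01 (-0.20 to 0.18), Sp7 -0.35 (-0.75 to 0.03) and Dlx5 0.26 (-0.09 to 0.61), and 0 of 8 members with 50 UMIs passed the fold, against 11.1% of 7751 genes. Differences within these intervals could not be resolved at this depth. Of the 6 bone targets with 50 UMIs, 2 were lower past the fold and none was higher. They were Dmp1 with -1.30 (-1.75 to -0.88) and Spp1 with -0.60 (-0.68 to -0.53), while 8.24% of all genes were lower past it. The median of these targets was -0.44, beside -0.07 over all genes. In tendon-like cells Sox6 alone among the members with 50 UMIs passed the fold, with -0.71 (-1.52 to 0.04) from 73 and 19 UMIs, against 11.4% of 7854 genes.

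**Figure D5:**
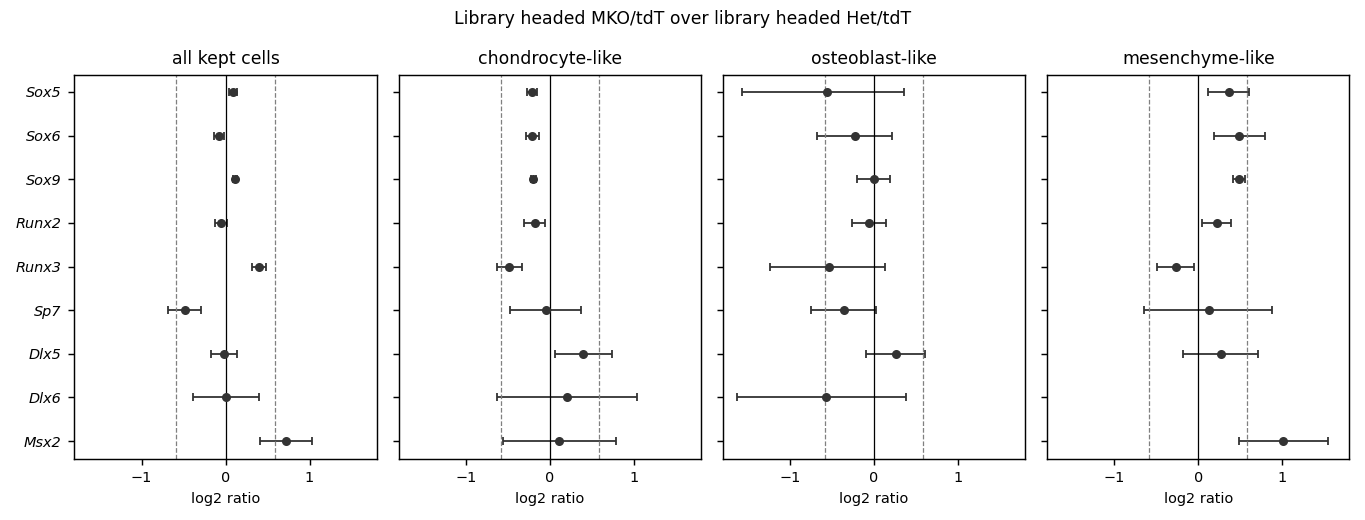
Log2 ratio of MKO/tdT over Het/tdT (horizontal axes) for the members with at least 50 UMIs in all kept cells, chondrocyte-like, osteoblast-like and mesenchyme-like cells, with exact 95% intervals and dashed lines at a 1.5-fold. Sox9 lies at -0.20 in chondrocyte-like and 0.49 in mesenchyme-like cells, and Msx2 is past the line in all kept cells and in mesenchyme-like cells.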

How the data were processed

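Per the labels and file headers, the authors demultiplexed the 10x Genomics reads, aligned them to mm10, counted UMIs per gene and aggregated both libraries with Cell Ranger (5.0.0 in the matrix header, 3.1.0 in the submitters' processing notes). The deposited values are counts of UMIs after this aggregation, for which the paper reports down-sampling of reads. They sum to 156093779 for Het/tdT and 128116615 for MKO/tdT, and 74 barcode sequences occur in both libraries. The median per barcode of MKO/tdT was 9372 UMIs before aggregation and 8105.5 as deposited, while that of Het/tdT was 9219 in both. Depths of MKO/tdT given here are those after this step. Barcode suffixes were linked to libraries by the numbers of cells in the summaries. Barcodes further than 2 SD from their library's mean in UMIs or in genes (both as log10), or with over 10% mitochondrial UMIs, were dropped. The 13 class lists asked for 4 to 6 UMIs from at least 2 genes. The mesenchyme-like class took only cells that met no other limit, so cells of other classes could also meet its limit. Schwann-like went before neural progenitor-like. Cells that met the chondrocyte and osteoblast limits and no other of these formed the cells of both limits. Other cells meeting several limits were set aside. Counts were summed per library and class, since cells of 1 library are not replicates, and no test was made. Named genes were the members, Srsf2, genes of written lists and the 3 most alike genes per member outside the class marker lists. 1 listed gene is not reported here. Members and lists were chosen with earlier results of these data known; the maturation sets, immune subsets, motifs, co-detection at 2 UMIs and ratios without a class were added after seeing the data. Class names rest on this marker rule and may differ from the study's. Ratio intervals were run on simulated Poisson counts without variation between cells. That is the model they assume, so the simulation could not show how they hold for clumped UMIs. Python 3.11.15, NumPy 2.4.6, SciPy 1.17.1 and pandas 2.3.3 were used. Globin UMIs in bone and cartilage classes sat mostly in single cells, such as 6448 of 6625 in 1 osteoblast-like cell of MKO/tdT.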

Additional observations from a re-analysis of the deposited data

Results flagged for a closer look

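For 4 of the 9 members the ratio of MKO/tdT over Het/tdT pointed down in chondrocyte-like and up in mesenchyme-like cells, with both intervals clear of 0. These intervals leave out variation between cells and between embryos. The 4 members were picked by this pattern, and the share of all genes with the same pattern was not taken. The log2 ratio in mesenchyme-like cells exceeded that in chondrocyte-like cells by 0.58 for Sox5, 0.70 for Sox6, 0.68 for Sox9 and 0.40 for Runx2. With 1 library per genotype the difference was not tested. Sox6 in mesenchyme-like cells stood at 5.5% and 8.8% of its chondrocyte-like level, against 3.8% and 4.2% in endothelial-like cells. For Sox5 these shares were 5.4% and 8.0% against 3.9% and 2.6%. The part of free RNA in these differences was not tested.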

How the results depend on the processing

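No paired analysis was possible because each genotype has 1 library. The count of members past the 1.5-fold between libraries (1), the count higher in osteoblast-like cells (3, or 4 when cells of several limits were given to 1 class or shares after thinning were used) and the count higher with Ihh and Col10a1 (4, with alternatives chosen after the data were seen) stayed within 1.5 times of these values under every alternative run. The log2 ratio of chondrocyte-like shares moved from 0.35 to 0.25 with each limit at 3 UMIs, to 0.26 with a mitochondrial limit of 5% and to 0.12 over cells outside the muscle-like class. Co-detection of Sox9 and Runx2 in osteoblast-like cells moved from 61.5% to 45.4% with limits of 3 UMIs and to 7.79% after thinning to 2000 UMIs. Of 232 library ratios of single members under alternatives, 12 left their interval and none that had excluded 0 changed sign. Depth limits Dlx6, Msx2 and every osteoblast-like ratio of a member between libraries.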
